A study of Mus musculus with 2 samples.

Results

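The genes described here are the GATA factors Gata2 and Gata1, the protein partners they act with, and the erythroid and megakaryocyte regulators tied to them: Zfpm1 (FOG1), Tal1, Lmo2, Ldb1, Lyl1, Gfi1b, Klf1 and Nfe2. The members were all probe sets that the platform annotation assigns to these 10 genes, which gave 12 of the 45101 probe sets on the array and 10 of 18193 annotated genes. Total RNA of mouse bone marrow KLS cells, sorted as negative for lineage markers and positive for c-kit and Sca, was hybridised to 1 array from wild type mice and 1 array from mice in which TIF1γ (Trim33), a transcriptional regulator of the TIF1 family, was conditionally inactivated (TIF1γ Δ/Δ). The labels used here name no Cre line, inducing agent or age of the mice, and do not say whether mice were pooled. Each genotype held 1 array, so no difference below has a replicate check, and no p-value or error between mice can be given.

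GATA2 maintains stem and progenitor cells, and GATA1 takes over many of the same binding sites as cells enter the erythroid and megakaryocyte lineages, an exchange known as the GATA switch. At many of these sites a GATA factor binds beside the basic helix-loop-helix protein TAL1 or its relative LYL1, and the adaptors LMO2 and LDB1 join the DNA-bound proteins into 1 complex. FOG1, encoded by Zfpm1, binds the GATA zinc finger and carries repressors and activators to the site, while GFI1B, KLF1 and NF-E2 are downstream or cooperating factors of red cell and platelet formation.

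Of the 10 genes, Gata2 was higher and Klf1 lower on the TIF1γ Δ/Δ array by at least 2-fold, and the other 8 lay within 1.5-fold. By the same size, 2.62% of all genes measured on both arrays stood higher and 4.65% stood lower. The call on Gata2 rests on 1 of its 2 probe sets. The promoters of the genes at the centre of this pattern, Gata2, Gata1 and Klf1, are shown because GATA, TAL1 and KLF1 proteins are known to bind short motifs of the kind searched for in them. Each run is the 250 bases before a RefSeq transcription start (build GRCm38.p6), 5′ to 3′ on the strand of the gene. Capitals mark matches on either strand to the GATA motif (A or T, then GATA, then A or G), to the E-boxes CAGCTG or CAGATG bound by helix-loop-helix proteins, or to CACCC, which lies within KLF1 sites.
Klf1, chr8:84901732-84901981, plus strand: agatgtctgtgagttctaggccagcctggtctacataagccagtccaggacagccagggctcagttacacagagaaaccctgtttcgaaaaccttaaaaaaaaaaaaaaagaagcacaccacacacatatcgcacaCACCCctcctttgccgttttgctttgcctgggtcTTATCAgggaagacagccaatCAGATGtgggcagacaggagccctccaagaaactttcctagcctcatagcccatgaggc
Gata1, chrX:7967911-7968160, minus strand: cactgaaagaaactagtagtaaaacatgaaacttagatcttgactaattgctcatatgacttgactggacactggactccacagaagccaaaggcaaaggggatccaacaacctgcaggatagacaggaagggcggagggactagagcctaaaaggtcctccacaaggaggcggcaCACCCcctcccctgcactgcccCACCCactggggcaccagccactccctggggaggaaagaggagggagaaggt
Gata2, first of 2 starts, chr6:88193641-88193890, plus strand: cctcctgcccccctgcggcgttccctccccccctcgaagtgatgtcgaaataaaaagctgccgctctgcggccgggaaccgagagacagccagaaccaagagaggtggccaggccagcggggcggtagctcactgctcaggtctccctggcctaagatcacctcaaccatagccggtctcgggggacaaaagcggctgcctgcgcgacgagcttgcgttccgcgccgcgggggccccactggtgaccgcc
Gata2, second of 2 starts, chr6:88198414-88198663, plus strand: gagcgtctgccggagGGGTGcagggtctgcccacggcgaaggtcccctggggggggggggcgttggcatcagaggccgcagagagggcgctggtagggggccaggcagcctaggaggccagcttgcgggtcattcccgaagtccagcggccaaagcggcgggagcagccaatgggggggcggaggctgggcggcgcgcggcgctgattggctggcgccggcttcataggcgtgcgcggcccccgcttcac

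The motif search covered windows of 300 bases, the 250 before and the 50 after each start, and 8 of the 10 genes were matched, with 12 windows. The Klf1 window held a GATA motif at -80 to -75, a CAGATG E-box at -59 to -54 and a CACCC match at -114 to -110, counted from the start, and a further CACCC match after the start at 29 to 33. Windows that hold all 3 kinds of motif made up 5.15% of the 32851 promoter windows of the same length, a combination looked up after the Klf1 matches were seen. The first Tal1 window also held all 3. The Gata1 window held CACCC at -74 to -70 and at -52 to -48, and neither a GATA motif nor either of the 2 E-boxes. The first Gata2 window held none of the motifs, and the second held CACCC at -235 to -231 and CAGCTG at 18 to 23. Over all promoters, a GATA motif was in 29.8%, either E-box in 30.6%, any CANNTG in 72.3% and CACCC in 57.5% of windows. Among the 12 windows, 4 held a GATA motif, 3 either E-box and 10 CACCC. Lmo2 and Nfe2 were not matched to a window. These are matches of letters, not binding sites measured in these cells.

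The arrays held MAS5 signals, which the submitters' processing notes name and which had been scaled so that the trimmed mean was 100 on each array. A probe set counted as measured when its signal reached the array's median over all probe sets other than controls, a floor of 14.4 for wild type and 11.7 for TIF1γ Δ/Δ. The log2 difference was TIF1γ Δ/Δ minus wild type, centred on the median of probe sets measured on both arrays, and the brightest probe set stood for its gene. Signals given as a pair are those of the wild type array first and the TIF1γ Δ/Δ array second. All 10 genes were measured on both arrays by this probe set, and 11 of the 12 probe sets were.

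The sort was checked against markers. Of 8 KLS genes with a probe set of their own (Kit, Cd34, Flt3, Slamf1, Procr, Hlf, Meis1 and Mecom), all 8 were measured on both arrays and none was 2-fold apart, with a median difference of 0.21 and summed signals of 4507 in wild type and 5612 in TIF1γ Δ/Δ; Ly6a, which encodes the Sca antigen, had no probe set of its own. Markers of mature neutrophils and macrophages were all measured only or more strongly on the wild type array: 16 of 17 had a value, all 16 were lower by at least 2-fold, and the summed signal of the 17 was 36447 in wild type and 798.8 in TIF1γ Δ/Δ. In TIF1γ Δ/Δ, 9 of the 16 were under the floor (S100a9, Ltf, Lcn2, Adgre1, Vcam1, C1qa, C1qb, C1qc and Cd5l), and Itgam was under it on both arrays. Late erythroid markers, of which 6 of 9 had a probe set of their own, summed to 909.9 and 193.0, with 4 of the 5 that had a value lower by at least 2-fold, and Alas2, Epb42 and Hba-a1 under the TIF1γ Δ/Δ floor. For B cells the sums were 633.7 and 202.4 over 7 genes, and 2 of the 4 with a value were at least 2-fold lower. For T and NK cells the sums were 1508 and 1160 over 8, of which Nkg7 alone gave 1249 and 1090. All 6 T and NK cell genes with a value were below 0, but only Klrd1 (log2 -1.93) and Nkg7 (log2 -0.17) were measured on both arrays. The other 4 were under the TIF1γ Δ/Δ floor and keep a value only when it is below 0, so their sign was fixed in advance. Of the 6, 3 were at least 2-fold lower. Over all genes with a value, 6.16% were lower by that much. In such bulk samples, fewer cells of a type and less RNA per cell cannot be told apart.

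**Figure D1:**
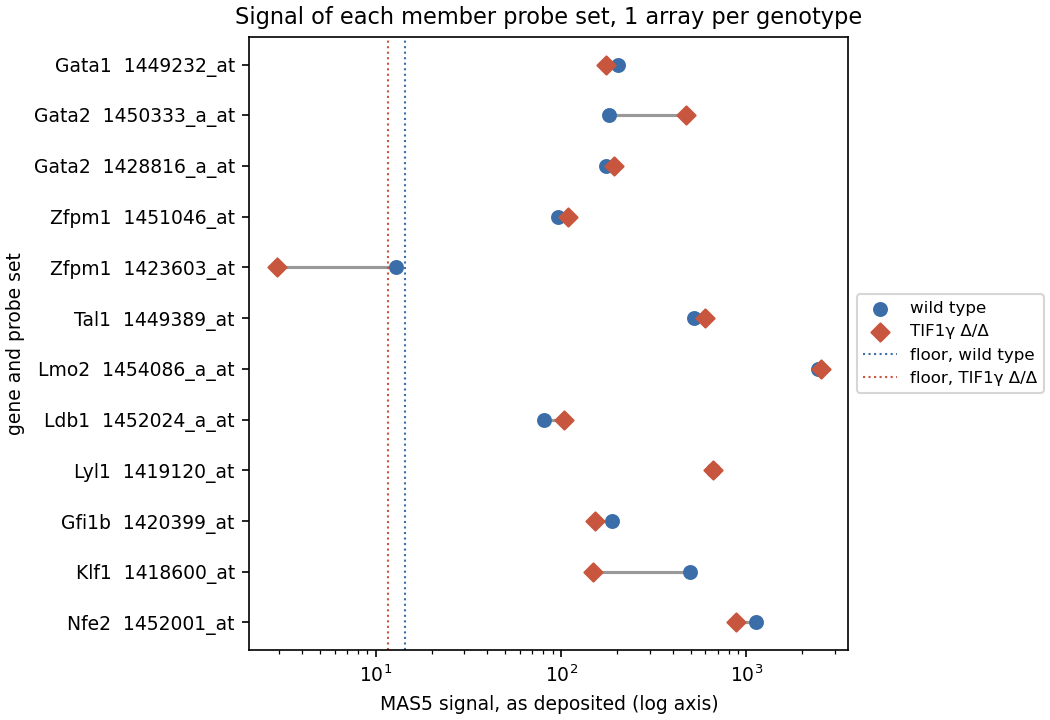
MAS5 signal (log axis, as deposited) of each of the 12 probe sets, with a circle for the wild type and a diamond for the TIF1γ Δ/Δ array, each 1 array; dotted lines mark the floors of 14.4 and 11.7. Among probe sets over the floor the pair is widest apart for Klf1 and for Gata2 probe set 1450333_a_at. The pair of 1423603_at of Zfpm1 is wider still, but lies under the floor on both arrays and has no fold.

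Gata2 encodes the GATA factor of stem cells, early progenitors and mast cells. Its probe set 1450333_a_at gave 182 and 472, a log2 difference of 1.40 or 2.64-fold. Among the 10365 genes measured on both arrays, 55, or 0.531%, had a difference at least as high, and 2.62% were at least 2-fold higher. The other Gata2 probe set, 1428816_a_at, gave 175 and 193, a log2 difference of 0.16 or 1.12-fold. Both differences were above 0, and only that of 1450333_a_at was past 2-fold. The gap between the 2 differences was 1.23 on the log2 scale. Of 2753 genes with exactly 2 measured probe sets, 140, or 5.09%, had a gap that wide. In 161 of these genes the brightest probe set was at least 2-fold apart, a choice that itself widens the gap; the other probe set was at least 2-fold apart in the same direction in 44 of the 161 (27.3%). The mean of both Gata2 probe sets was 0.78, which is under 2-fold. The annotation ties the 2 probe sets to different transcript records, and the transcripts each one reads were not analysed here.

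Gata1, the GATA factor of red cells, megakaryocytes and mast cells, was read by the single probe set 1449232_at. It gave 202 and 175, a log2 difference of -0.18. Of the genes measured on both arrays, 33.4% were at least as low. The Gata2 difference exceeded that of Gata1 by 1.58 on the log2 scale, or 2.99-fold, when Gata2 was read by 1450333_a_at. It exceeded it by 0.35 when Gata2 was read by 1428816_a_at. A constant shift between the arrays cancels in this contrast, which was 1.58 with quantile and with loess scaling and 1.49 with a pseudocount.

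Zfpm1 encodes FOG1, the cofactor that GATA1 needs for red cell and platelet formation. Its probe set 1451046_at gave 96.6 and 109, a log2 difference of 0.20. The other, 1423603_at, was listed at 12.8 and 2.92 and was under the floor on both arrays, so it has no fold. The annotation ties both probe sets to the same sequence record.

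The 4 genes of the core complex differed little. Tal1, the helix-loop-helix factor at its centre, gave 521 and 594 (log2 0.21). Lyl1, a close relative of Tal1 that shares functions with it in adult stem cells, gave 656 and 657 (log2 0.026). The bridging adaptor Lmo2 gave 2444 and 2526 (log2 0.071). Ldb1, whose self-association is known to bring distant enhancers to promoters, gave 80.6 and 104 (log2 0.39). The 4 differences ran from 0.026 to 0.39, all above 0, although Lyl1 was at -0.044 with quantile scaling, -0.070 with loess scaling, -0.033 with a floor at the 65th percentile and -0.00038 with 1 common floor. Of genes measured on both arrays, 46.7% were at least as far apart in either direction as Ldb1, and 96.1% were at least as far apart as Lyl1.

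The erythroid and megakaryocyte regulators beside Gata1 all had lower signal in TIF1γ Δ/Δ cells, and only Klf1 was 2-fold apart. Klf1 encodes the erythroid Krüppel-like factor that activates adult beta-globin and many genes of the red cell membrane and of haem synthesis. Its single probe set, 1418600_at, gave 496 and 149, a log2 difference of -1.71 or 3.28-fold lower. Of the 10365 genes measured on both arrays, 123, or 1.19%, were at least as low, and 4.65% were at least 2-fold lower. Gfi1b, a repressor needed for red cells and platelets, gave 188 and 152 (log2 -0.28). Nfe2, the haematopoietic subunit of NF-E2 that drives platelet release, gave 1121 and 877 (log2 -0.33). Gfi1b and Nfe2 thus stood near the middle of all genes, of which 60.1% and 53.7% were at least as far apart in either direction, whereas the Klf1 difference minus that of Gata1 was -1.53 on the log2 scale.

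**Figure D2:**
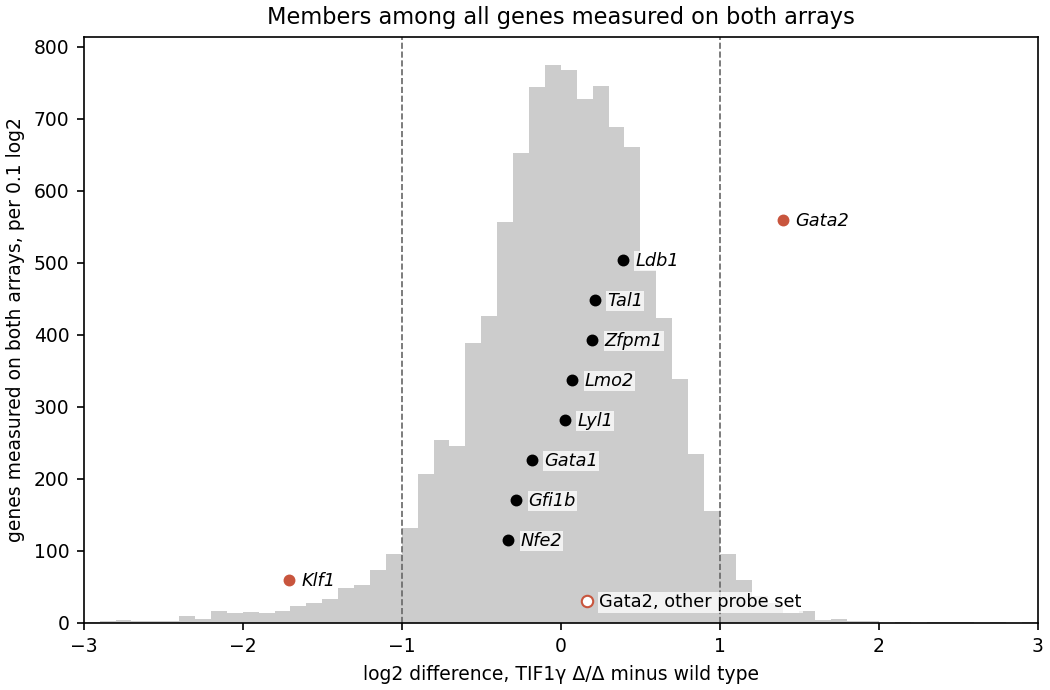
Log2 difference (TIF1γ Δ/Δ minus wild type) of the 10 genes as filled points, the other Gata2 probe set as an open point, over a histogram of the 10365 genes measured on both arrays; the height of a point has no meaning, dashed lines mark 2-fold, and 24 genes beyond 3 on either side are off the axis. Gata2 (1.40) and Klf1 (-1.71) lie outside the dashed lines, and the open point of Gata2 (0.16) lies in the bulk.

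Over the 10 genes, 6 differences were above and 4 below 0, and the median was 0.049, against 0.044 over genes measured on both arrays. That median was -0.010 with a floor at the 65th percentile and -0.18 without shared probe sets, where Gata2, Ldb1 and Lmo2 had no value. The 8 genes other than Gata2 and Klf1 ran from -0.33 to 0.39. Within 1.5-fold lay 8 of the 10 genes and 72.6% of all genes measured on both arrays, where 14.3% were higher by 1.5-fold or more and 13.2% lower by as much. The median size of a difference, sign aside, was 0.25 over the 10 genes and 0.36 over all genes measured on both arrays. Probe sets of 1 gene scattered with an SD of 0.452 (log2) across 4534 genes that had several. This is disagreement within a gene and says nothing of the spread between mice; the difference of each of the 8 genes was smaller.

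**Figure D3:**
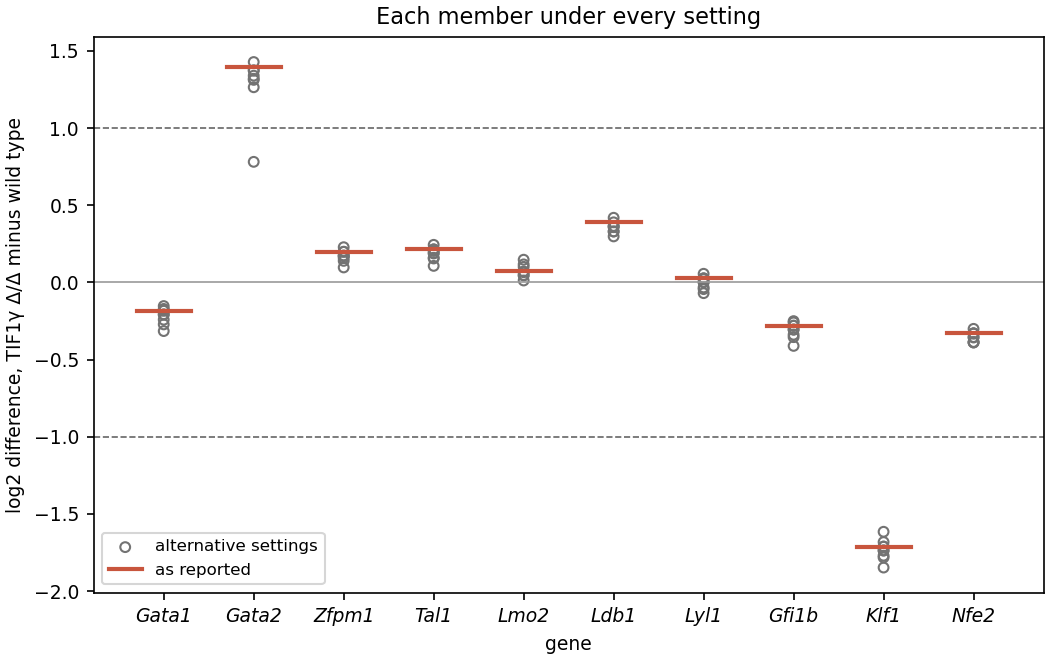
Log2 difference (TIF1γ Δ/Δ minus wild type) of each gene as reported (bars) and under the alternative settings that gave a value (open circles); dashed lines mark 2-fold. Klf1 stayed between -1.85 and -1.62, and the lone low circle of Gata2 at 0.78 is the mean of its probe sets.

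Erythroid genes known as targets of GATA1 or KLF1 were lower together with Klf1. Of 37 listed genes 31 had a probe set of their own and 30 had a value. Of the 30, 3 were under the TIF1γ Δ/Δ floor and keep a value only when it is below 0. By at least 2-fold, 14 were lower and none was higher, and 28 of the 30 were below 0. Their median was -0.95, against 0.017 over all 11439 genes with a value, of which 6.16% were lower and 2.6% higher by at least 2-fold and 48.7% were below 0. Slc4a1, the band 3 anion exchanger of the red cell membrane, gave 271 and 17.7 (log2 -3.91, 2 of 2 probe sets). Cldn13, a claudin of erythroid cells, gave 419 and 62.1 (log2 -2.73). Blvrb, which encodes biliverdin reductase B, gave 515 and 78.2 (log2 -2.70), and Rhd, a blood group protein of the red cell membrane, gave 200.2 and 41.6 (log2 -2.24). The wild type signal was the higher in each of these pairs.

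In 8 genes of the erythroid list the difference was at least as low as that of Klf1. The 7 haem synthesis enzymes listed were all below 0, and 2 of them at least 2-fold: Alas2, the erythroid first enzyme of the pathway (at least 5.79-fold, from 68.6 to under the floor), and Cpox (197 to 91.6, log2 -1.08). Urod (2875 to 1483, log2 -0.93) and Fech (403 to 275, log2 -0.53), which inserts the iron, were under 2-fold. Epor, the erythropoietin receptor, gave 65.3 and 28.8 (log2 -1.16), while Bcl2l1 (log2 -0.13), E2f2 (log2 -0.051) and Tmod1 (log2 0.13) were near 0. Alas2, Cpox, Urod, Fech, Epor, Bcl2l1, E2f2, Tmod1 and the globin genes below were named after their values were seen. The list shares Alas2, Slc4a1, Epb42, Hba-a1, Ermap and Rhag with the late erythroid markers, whose summed signal was lower on the same array (909.9 and 193.0). Their part in the Klf1 difference was not tested. The alpha-globin genes Hba-a1 and Hba-a2 are near-identical copies, and the probe set of Hba-a2 gave 133 and 80.5 (log2 -0.70) while that of Hba-a1 was under the floor on both arrays.

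Megakaryocyte genes known as targets of GATA1, FOG1 or NF-E2 included some on either side. Of 25 listed, 21 had a value, and the median was 0.24. The counts at 2-fold were 3 higher, beside 2.6% of all genes with a value, and 2 lower, beside 6.16%. The chemokine Ppbp (44.3 to 234, log2 2.42), the platelet tubulin Tubb1 (25.8 to 73.9, log2 1.54) and the integrin Itgb3 (58.3 to 146, log2 1.34) were higher. Mmrn1, a protein of platelet granules, was lower (439 to 189, log2 -1.19), as was the G protein subunit Gng11 (605 to 286, log2 -1.06), which was chosen with its value known. All 5 were measured on both arrays, although Tubb1 was dim on the wild type array, close to its floor of 14.4. The 3 higher became 2 with a floor at the 65th percentile, and the 2 lower became 3 with loess scaling.

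Stem and progenitor genes known as targets of GATA2 or TAL1 had a median of 0.35. Of the 18, 14 were above 0 and 2 at least 2-fold higher, beside 51.3% and 2.6% of all genes with a value. The 2 became 1 with no centring or a common floor, and 0 with a floor at the 65th percentile or a pseudocount of 16. Cebpa, a myeloid transcription factor, gave 24.4 and 63.1 (log2 1.39). For Tek, a receptor of stem cells and endothelium, the wild type signal was 20.1 and the difference 1.02 (log2). Both were dim on the wild type array, close to its floor of 14.4. The other 16 genes, which include the receptor Kit (384 to 495, log2 0.39) and the factor Hhex (924 to 1257, log2 0.47), both named after their values were seen, were under 2-fold apart. Genes with a mean signal of at least 100 were shifted in the same direction, with a median of 0.11 and 58.3% above 0 over 6136 genes. This list shares Kit, Cd34, Meis1 and Mecom with the KLS markers, and Runx1, Fli1, Erg and Lmo4 with the further cofactors below. The shifts of these lists are therefore not separate observations.

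Mast cell and basophil genes, which GATA2 and GATA1 are known to drive, had a median of -0.23. Of 12 measured, 1 was at least 2-fold lower and none higher. That gene was Fcer1g (240 to 77.2, log2 -1.61), the common Fc receptor gamma chain, which neutrophils and macrophages express too; their markers were lower on the same array (36447 and 798.8), and their part in this difference was not tested. The mast cell carboxypeptidase Cpa3 gave 657 and 958 (log2 0.57), and the basophil protease Mcpt8 gave 316 and 197 (log2 -0.66). Of the 12 genes, 5 were above 0 and 7 below, near the 48.7% below 0 over all genes with a value, of which 6.16% were lower by at least 2-fold.

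Further cofactors of the GATA and TAL1 complexes were shifted slightly upward. Of 32 listed genes 31 were measured. By the brightest probe set 27 were above 0, beside 51.3% of all genes with a value and 58.3% of genes with a mean signal of at least 100. The 27 include Cbfa2t3 and Tcf12, of which 3 of 4 and 3 of 5 probe sets were lower. By at least 2-fold, 1 of the 31 was higher and none lower, beside 2.6% and 6.16% of all genes with a value. The median was 0.34, against 0.11 over genes with a mean signal of at least 100. It was 0.23 with loess scaling and 0.22 with the mean of probe sets. The gene past 2-fold was Gatad2a, a subunit of the NuRD repressor that FOG1 recruits, at 206 and 412 (log2 1.02, 4 of 5 probe sets higher). It stood just past the threshold, and no cofactor was 2-fold higher with any other scaling, a common or higher floor, a pseudocount or the mean of probe sets. The histone-binding subunits Rbbp7 (6310 and 6200, log2 -0.0014) and Rbbp4 (5320 and 5336, log2 0.028) hardly differed. The 11 NuRD genes of the list were not a group planned in advance. Of these 11, 8 were above 0, beside the same 51.3% and 58.3%, and the median was 0.37, with a range from -0.16 to 1.02. Chd4, Hdac2, Gatad2a and Rbbp4, all above 0, each had 1 probe set that was lower, and Rbbp7, below 0, had 1 that was higher.

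Paralogues of the 10 genes and the partners of NF-E2 showed no gene at 2-fold. Of 15 listed, 12 had a value, 5 above and 7 below 0, and the median was -0.14, but 0.078 with quantile scaling and 0.048 with loess scaling. Bach1, a repressor that competes for NF-E2 sites, gave 459 and 627 (log2 0.47), and Nfe2l2 gave 385 and 426 (log2 0.17). Gfi1, the paralogue of Gfi1b, gave 194.2 on both arrays (log2 0.024), and Gata3 gave 23.5 and 20.9 (log2 -0.14); both were named after their values were seen. Zfpm2, the paralogue of Zfpm1, was under the floor on both arrays.

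**Figure D4:**
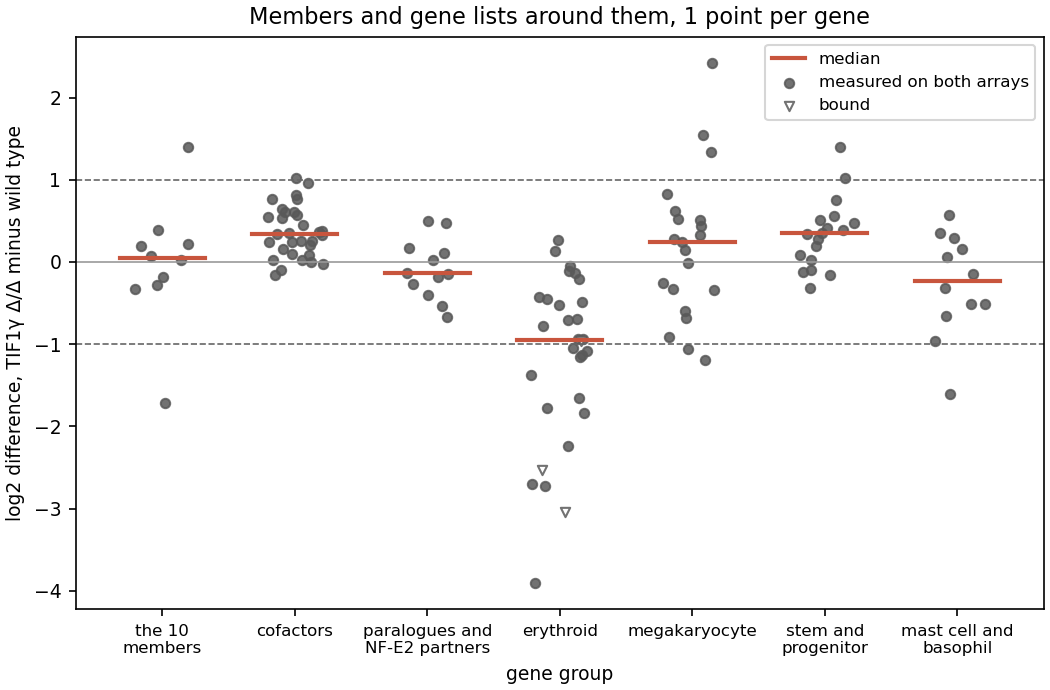
Log2 difference (TIF1γ Δ/Δ minus wild type) of the 10 genes and of each gene list, 1 point per gene with a value, with sideways spread only to separate points; triangles are bounds, bars are medians and dashed lines mark 2-fold. The erythroid list has the lowest median (-0.95), and the points of the 10 genes spread from Klf1 at -1.71 to Gata2 at 1.40 around a median of 0.049.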

How the data were processed

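Total RNA from KLS cells was measured on 2 mouse Affymetrix arrays, 1 per genotype label, with 25 ng labelled in a 2-cycle protocol per the labels' protocols. The deposited intensity values were linear, and the submitters' processing notes name MAS5, with no version or settings. Detection calls were not analysed here. The annotation assigned 34945 probe sets to 1 gene, 932 to several and 9160 to none; no probe set of several genes named a member. Symbols were updated by Entrez identifier to RefSeq (GRCm38.p6). The 64 control probe sets were left out. A signal under the floor on 1 array was replaced by the floor and the value printed as at least N-fold; a gene under the floor on both arrays, or whose bound fell below 1-fold, has no value. Centring removed a median of -0.024.

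With 1 array a group nothing was tested between genotypes, and differences are read by size alone. All members are named with every probe set; from each list up to 4 genes at least 2-fold apart, and up to 2 of the brightest where fewer than 2 were. The members and lists were chosen with earlier results of these data known. Proteins were not compared here. The procedure was tested on simulated data, a copy of the wild type array with known folds put into genes of high signal. Changes in dim genes and the spread between mice were not simulated. Python 3.11.15, numpy 2.4.6, pandas 2.3.3, statsmodels 0.14.6 and matplotlib 3.10.9 were used.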

Additional observations from a re-analysis of the deposited data

How the results depend on the processing

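The number of arrays limits every value, and no paired analysis was possible because each genotype held 1 array and the labels carry no replicate numbers. For the same reason no array could be left out. The setting without shared probe sets dropped all those with the suffix _s_at, _x_at or _a_at. Gata2, Ldb1 and Lmo2 then had no value, because they were read only by _a_at probe sets. Under each of the 11 alternatives Klf1 was past the threshold in use, as the only lower gene of the 10. No gene of the 10 was at least 2-fold higher with the mean of probe sets, without shared probe sets or at 3-fold (0 in each), and Gata2 minus Gata1 was 0.96 with the mean of probe sets. Of the values under the alternatives, 195 of the comparisons and 86 of single genes kept within the probe set scatter or within 1.5 times the count. The values that moved further numbered 30 and 1. Some values could not move, such as those of genes with 1 probe set under the mean of probe sets. A change of sign within the scatter counted as kept.

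The count of higher cofactors was 0 with no centring, quantile or loess scaling, a floor at the 65th percentile, a common floor, a pseudocount of 16, the mean of probe sets or 3-fold, and 8 at 1.5-fold; 1 was lower without shared probe sets. Of stem and progenitor genes, 1 was higher with no centring or a common floor and 0 with a floor at the 65th percentile, a pseudocount or 3-fold, and 1 was lower without shared probe sets. Of mast cell genes, 2 were lower with quantile or loess scaling or a floor at the 65th percentile and 3 at 1.5-fold. Megakaryocyte genes numbered 5 higher and 5 lower at 1.5-fold, and 1 and 0 at 3-fold. Of erythroid genes, 10 were lower by 2-fold with a pseudocount of 16, where their median was -0.80, and 9 were lower at 3-fold. At 1.5-fold 1 paralogue was lower. Over all genes, 297 higher and 705 lower became 1579 and 1791 at 1.5-fold, 26 and 266 at 3-fold, 166 and 426 with a pseudocount, and 170 and 412 with a floor at the 65th percentile. With the mean of probe sets 186 were higher and 658 lower.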
